A study of Mus musculus with 24 samples.

Results

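The expression of 10 genes of reactive glia and of the gp130 cytokine pathway was examined in neural stem and progenitor cells (NSPCs) with and without *Kat6a*, the gene of a histone lysine acetyltransferase. The genes were chosen by name from the 26411 genes in each count table: the receptor genes *Osmr*, *Lifr* and *Il6st*, the transducer *Stat3*, the feedback inhibitor *Socs3*, and *Cd44*, *Serpina3n*, *Lcn2*, *C3* and *C4b*. The cells came from the dorsal telencephalon, the part of the brain that forms the cortex, of E12.5 mouse embryos, and were frozen and passaged in neurosphere culture. They were wildtype (*Kat6a*+/+), heterozygous (*Kat6a*+/–) or homozygous (*Kat6a*–/–) for a constitutive null allele. According to the study, proliferating *Kat6a*–/– cells attached to the dish and gave few floating colonies, and *Kat6a*+/– colonies were smaller and tended to attach. RNA was collected after 3 days with FGF2 and EGF (proliferating) or after 3 days on poly-L-ornithine and laminin with serum and without these growth factors (differentiating). Each of the 6 groups held 4 libraries, each labelled as coming from 1 embryo.

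The gp130 family of cytokines, which includes LIF, CNTF, oncostatin M and interleukin 6, acts through receptors that share the subunit gp130, encoded by *Il6st*. A second subunit gives the receptor its ligand: LIFR for LIF and, with a further subunit, for CNTF, and OSMR for oncostatin M. The receptors activate JAK kinases and STAT3, which in cortical progenitors favours astrocyte formation, and STAT3 induces *Socs3*, whose product blocks the receptor. Astrocytes that respond to injury or inflammation, called reactive, raise a set of genes that includes the hyaluronan receptor gene *Cd44*, the protease inhibitor gene *Serpina3n*, the lipocalin gene *Lcn2*, *Osmr* and the complement genes *C3* and *C4b*.

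Total counts ranged from 7826660 to 40838203 per library. The targeted gene *Kat6a* gave 373 to 409 CPM (counts normalised to the size of each library) in proliferating *Kat6a*+/+ and 334 to 389 CPM in *Kat6a*–/– NSPCs, and 239 to 292 against 160.0 to 253 CPM in differentiating NSPCs, so reads over the whole gene did not separate the genotypes. In both conditions, Y-linked genes exceeded 100 CPM in 3 of 4 *Kat6a*+/+, 1 of 4 *Kat6a*+/– and 1 of 4 *Kat6a*–/– libraries, so that sex and genotype were partly confounded. Proliferating and differentiating RNA was extracted with different kits, so kit and condition cannot be told apart. Of 12 microglia and macrophage markers, *C1qa*, *C1qb*, *C1qc*, *Tyrobp* and *Trem2* had no read in any library. The summed level of the 12 was 0.461 to 8.38 CPM per library, with the highest values, 6.38 to 8.38 CPM, in proliferating *Kat6a*–/– NSPCs, nearly all of it *P2ry12*. The summed level of 11 astrocyte markers in proliferating NSPCs was 1081 to 1284 CPM in *Kat6a*+/+ and 1715 to 2429 CPM in *Kat6a*–/– libraries, without overlap, and its part in the results was not tested. In bulk RNA, fewer cells of a type and less RNA per cell cannot be told apart.

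In proliferating *Kat6a*–/– vs. *Kat6a*+/+ NSPCs, the receptor genes *Osmr*, *Lifr* and *Il6st* and the complement gene *C4b* were higher, and *Serpina3n* and *Stat3* were lower. These were 6 of the 8 genes that could be tested (FDR < 0.05), beside 30.0% of all 12276 genes tested, 16.2% higher and 13.8% lower. The count was 4 to 7 under other settings and 4 to 6 with one library left out. With litter as a fixed term, *Il6st* (FDR 0.0547) and *Stat3* (FDR 0.0659) were not called, and 15.8% of all genes were. In differentiating *Kat6a*–/– NSPCs, *Cd44*, *Osmr*, *Socs3* and *C3* were higher. These were 4 of 9 genes, beside 54.4% of 13339 genes called in either direction and 26.7% called higher. The share of all genes called there was 23.2% without library quality weights and 6.99% to 70.6% when 1 *Kat6a*–/– library was left out. Without TMM scaling the median of all genes moved by −0.17 on the log2 scale, 31.7% of all calls were higher, and *Lifr* (−0.21, FDR 0.0457) and *Il6st* (−0.37, FDR 0.0346) were called lower beside these 4. The median log2 fold-change of the tested genes was 0.23 in proliferating and 0.47 in differentiating NSPCs, and that of all genes was −0.00 and −0.02. *Osmr* was the one gene called in both conditions. No gene was called in *Kat6a*+/– NSPCs. *Lcn2* did not pass the filter on low counts in either condition, and *C3* did not pass it in proliferating NSPCs. These genes and the later lists were chosen with earlier results of these data known. Their counts beside the all-gene shares are therefore not a test.

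**Figure D1:**
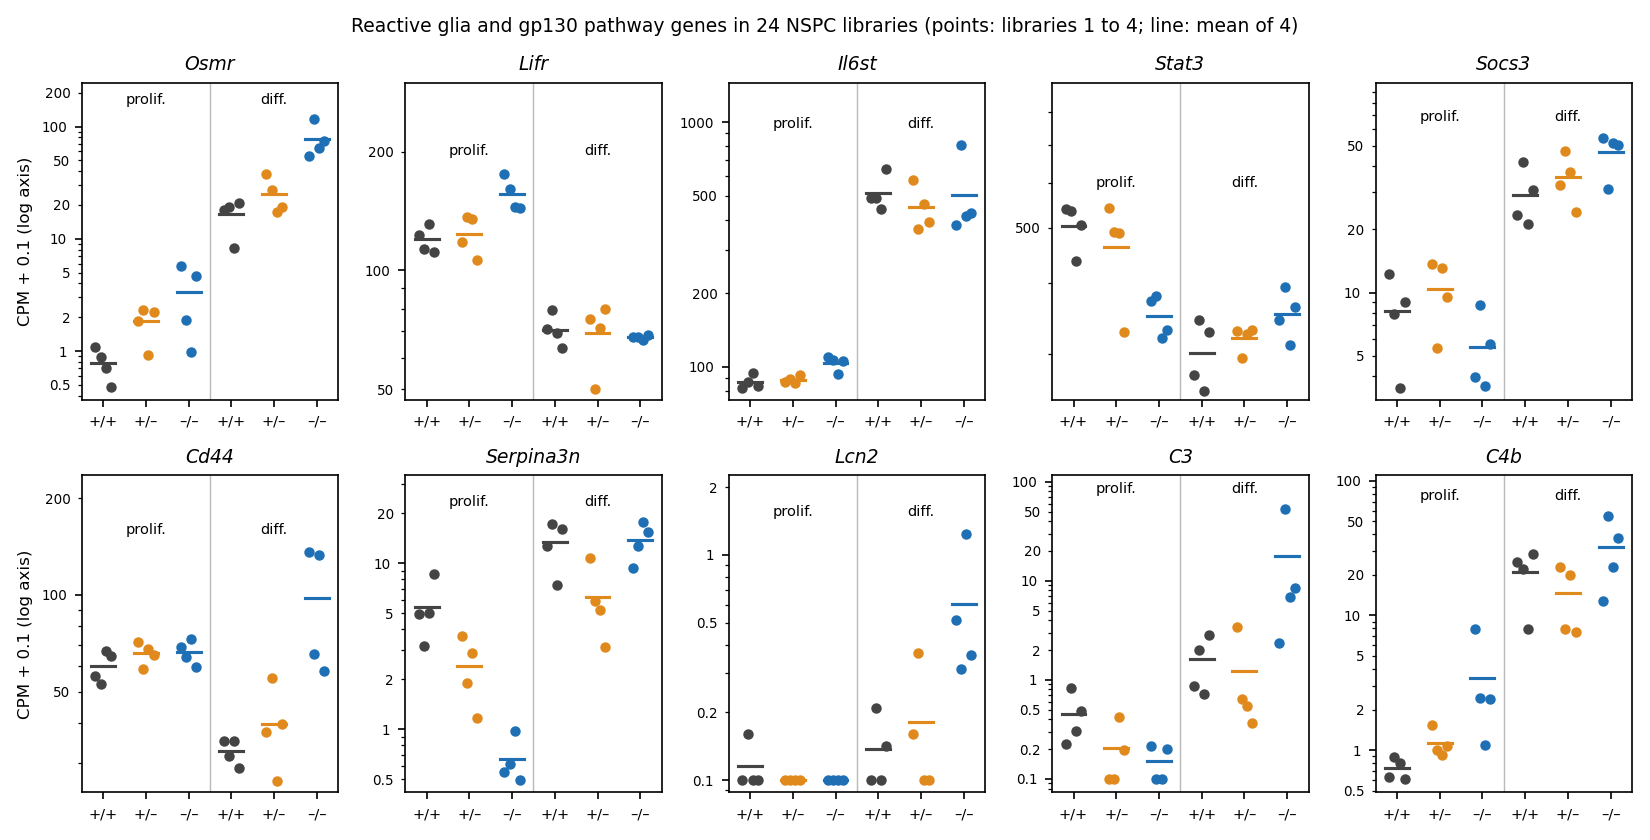
Level of each of the 10 genes in all 24 libraries, in CPM plus 0.1 on a log axis, by *Kat6a* genotype (+/+, +/–, –/–) in proliferating (left) and differentiating (right) NSPCs. Points are libraries, spread sideways in replicate order, and lines are means of 4. All 4 *Kat6a*–/– libraries lie above the *Kat6a*+/+ libraries for *Osmr* and *Cd44* in differentiating NSPCs and below them for *Serpina3n* in proliferating NSPCs.

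Upstream windows are shown for *Socs3*, *Osmr* and *Cd44*, each called higher in differentiating *Kat6a*–/– NSPCs. *Socs3* is a known STAT3 target and the other pair are studied as reactive genes. The window of *C3*, also called higher, is not shown. Each window covers the 250 bases before the transcription start in RefSeq (build GRCm38.p6), at chr11:117969367-117969616, chr15:6874314-6874563 and chr2:102901666-102901915, all on the minus strand, and is written 5′ to 3′ with a match to the STAT motif in capitals.
Socs3: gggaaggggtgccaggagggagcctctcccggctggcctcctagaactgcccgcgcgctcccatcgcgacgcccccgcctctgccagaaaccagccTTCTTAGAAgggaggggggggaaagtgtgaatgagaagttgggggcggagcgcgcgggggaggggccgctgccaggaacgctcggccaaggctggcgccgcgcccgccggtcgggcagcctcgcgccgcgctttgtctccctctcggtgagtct
Osmr: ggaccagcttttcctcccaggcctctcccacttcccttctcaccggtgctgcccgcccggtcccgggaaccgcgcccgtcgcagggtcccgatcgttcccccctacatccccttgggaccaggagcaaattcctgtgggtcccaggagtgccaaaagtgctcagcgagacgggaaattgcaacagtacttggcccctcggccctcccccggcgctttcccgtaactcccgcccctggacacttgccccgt
Cd44: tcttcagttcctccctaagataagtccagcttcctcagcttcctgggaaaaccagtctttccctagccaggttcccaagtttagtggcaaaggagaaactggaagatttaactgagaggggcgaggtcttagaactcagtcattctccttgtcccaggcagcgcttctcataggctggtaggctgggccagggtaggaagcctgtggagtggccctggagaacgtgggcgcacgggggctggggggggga
The motif TTCNNNGAA, which reads the same on both strands in its fixed letters, begins 154 bases before the *Socs3* start, and 6.64% of 20493 mouse promoter windows of this length hold it. No other window of the 10 genes holds it, and none holds the AP-1 motif TGANTCA (6.27% of all windows) or the NF-kappaB consensus (7.98%), searched on both strands. *C4b* has no entry in the promoter table. A match of letters is a description and not a binding site.

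*Osmr* (mm39 chromosome 15, 6843053 to 6904450, minus strand) encodes the oncostatin M receptor subunit. In proliferating NSPCs it was at 0.986, 0.782, 0.604 and 0.381 CPM in *Kat6a*+/+, at 1.77, 2.21, 0.816 and 2.15 CPM in *Kat6a*+/– and at 5.66, 1.80, 0.876 and 4.59 CPM in *Kat6a*–/– libraries. In each mutant genotype 3 of 4 libraries lay above the *Kat6a*+/+ range and the remaining library lay inside it. The fitted log2 fold-change in *Kat6a*–/– NSPCs was 1.77 (SE 0.54, FDR 0.0257). This call was lost, with an FDR of up to 0.0816, when any *Kat6a*+/+ library or *Kat6a*–/– replicate 1 or 4 was left out. In differentiating NSPCs *Osmr* was at 17.9, 19.0, 8.21 and 20.6 CPM in *Kat6a*+/+, at 37.5, 26.9, 17.4 and 19.0 CPM in *Kat6a*+/– and at 54.2, 116, 64.4 and 74.7 CPM in *Kat6a*–/– libraries. Every *Kat6a*–/– library exceeded every library of the other genotypes. The log2 fold-change against *Kat6a*+/+ was 2.21 (SE 0.32, FDR 0.000133), it lay between 1.78 and 2.63 when any library was left out, and it stayed called under every alternative tried.

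*Lifr* (chromosome 15, 7120095 to 7226970, plus strand), the LIF receptor subunit gene, is the protein-coding gene after *Osmr* on this chromosome. Its level in proliferating NSPCs was 123, 113, 131 and 111 CPM in *Kat6a*+/+ libraries, 118, 136, 135 and 106 CPM in *Kat6a*+/– libraries and 175, 161, 145 and 144 CPM in *Kat6a*–/– libraries. All 4 *Kat6a*–/– libraries were the highest of the condition, with a log2 fold-change of 0.40 (SE 0.07, FDR 0.00156) that was called under every alternative. Differentiating libraries held 71.0, 79.3, 69.1 and 63.4 CPM in *Kat6a*+/+ libraries, 75.3, 49.8, 71.5 and 79.7 CPM in *Kat6a*+/– libraries and 67.6, 67.7, 66.5 and 68.6 CPM in *Kat6a*–/– NSPCs. The *Kat6a*–/– values lay inside the *Kat6a*+/+ range, and the log2 fold-change was −0.06 (95% interval −0.25 to 0.13, FDR 0.570).

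*Il6st* (chromosome 13, 112600604 to 112646620, plus strand), which encodes gp130, was at 81.9, 86.8, 94.1 and 83.7 CPM in proliferating *Kat6a*+/+, at 87.0, 89.0, 85.8 and 92.4 CPM in *Kat6a*+/– and at 109, 107, 93.2 and 106 CPM in *Kat6a*–/– libraries. All *Kat6a*–/– libraries but replicate 3 exceeded all others. Its log2 fold-change was 0.27 (SE 0.07, FDR 0.00861), but 0.24 (FDR 0.0547) when litter was fitted as a fixed term. Differentiating NSPCs had 489, 492, 441 and 641 CPM in *Kat6a*+/+ libraries, 579, 365, 463 and 392 CPM in *Kat6a*+/– libraries and 379, 806, 415 and 425 CPM in *Kat6a*–/– libraries. Apart from replicate 2, the *Kat6a*–/– libraries lay below the *Kat6a*+/+ range, and the log2 fold-change of −0.22 (SE 0.15, FDR 0.227) did not pass the test. Without replicate 2 it was −0.25 and called (FDR 0.0255), and without replicate 1 or 3 it was positive (0.24 and 0.28).

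Per gene length as given with the counts, *Osmr* was the lowest and *Il6st* the highest of the receptor subunits in *Kat6a*+/+ NSPCs of both conditions. In CPM per kilobase of that length (RPKM, mean ± SD, n = 4), proliferating *Kat6a*+/+ NSPCs had 0.144 ± 0.0538 for *Osmr*, 11.6 ± 0.882 for *Lifr* and 15.9 ± 0.992 for *Il6st*. Differentiating *Kat6a*+/+ NSPCs had 3.43 ± 1.17, 6.84 ± 0.638 and 94.6 ± 15.9. Differentiating *Kat6a*–/– NSPCs had 16.1 ± 5.64 RPKM of *Osmr* and 6.54 ± 0.0842 RPKM of *Lifr*. The RPKM ratio of *Osmr* to *Lifr* had a median of 0.0124 in proliferating *Kat6a*+/+, 0.0337 in *Kat6a*+/– and 0.0465 in *Kat6a*–/– libraries. In differentiating NSPCs the ratio was 0.256 to 0.702 in *Kat6a*+/+, 0.515 to 1.17 in *Kat6a*+/– and 1.73 to 3.69 in *Kat6a*–/– libraries. In RPKM, *Osmr* was thus above *Lifr* in all 4 differentiating *Kat6a*–/– libraries and below it in all 4 *Kat6a*+/+ libraries. This order rests on the lengths used, 4789 bases for *Osmr* and 10333 for *Lifr*. In CPM, *Osmr* was below *Lifr* in *Kat6a*–/– replicates 1 (54.2 and 67.6) and 3 (64.4 and 66.5). It was above *Lifr* in replicates 2 (116 and 67.7) and 4 (74.7 and 68.6).

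**Figure D2:**
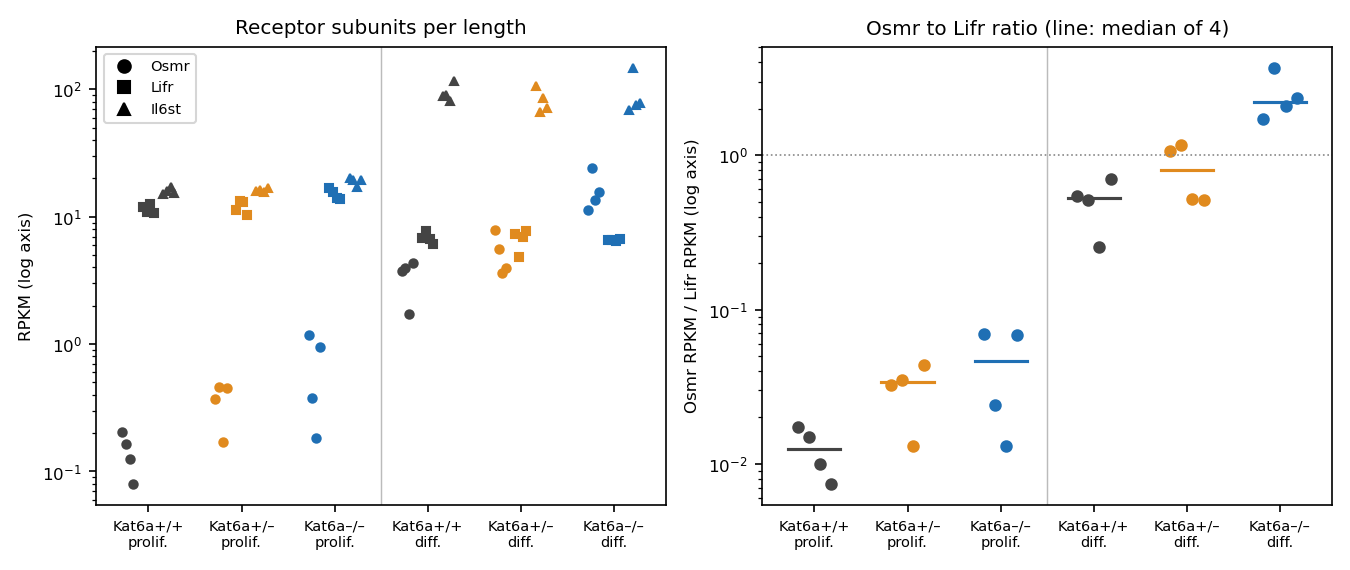
Left, RPKM (log axis) of *Osmr*, *Lifr* and *Il6st* in each library of the 6 groups. Right, ratio of *Osmr* to *Lifr* RPKM (log axis), with a line at the median of 4 libraries and a dotted line at equal levels. The ratio exceeds the dotted line in all 4 differentiating *Kat6a*–/– libraries and in none of the differentiating *Kat6a*+/+ libraries.

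Of 10 listed genes for gp130 ligands and their partners, 4 could be tested in proliferating and 5 in differentiating NSPCs. *Il6* and *Osm*, the genes of interleukin 6 and oncostatin M, were close to unread: *Osm* had 1 read in all libraries together and *Il6* at most 2 reads in a group. *Lif* was at 12.7, 10.6, 9.25 and 16.9 CPM in proliferating *Kat6a*+/+ and at 4.64, 7.47, 4.27 and 8.18 CPM in *Kat6a*–/– libraries. All 4 *Kat6a*–/– libraries were lower (log2 fold-change −0.98, SE 0.25, FDR 0.0114). Differentiating NSPCs held 1.10, 2.40, 0.724 and 0.210 CPM in *Kat6a*+/+ libraries and 16.3, 1.49, 13.3 and 4.07 CPM in *Kat6a*–/– libraries. Replicates 1, 3 and 4 of *Kat6a*–/– exceeded the *Kat6a*+/+ range and replicate 2 did not. The log2 fold-change was 3.57 (FDR 0.000159), or 2.70 (FDR 0.0329) without library quality weights.

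*Clcf1*, the gene of a cytokine that acts through the CNTF receptor, was higher in differentiating *Kat6a*–/– NSPCs. It was at 5.34, 16.1, 6.08 and 4.02 CPM in *Kat6a*+/+, at 28.5, 28.8, 10.2 and 18.2 CPM in *Kat6a*+/– and at 48.9, 34.2, 47.8 and 38.4 CPM in *Kat6a*–/– libraries. The *Kat6a*–/– libraries were all above those of the other genotypes (log2 fold-change 2.93, FDR 1.57e-05). *Ctf1*, the cardiotrophin gene, was lower in differentiating *Kat6a*–/– NSPCs (−0.48, FDR 0.0463) but was not called without quality weights. Of the receptor list, *Il6ra* rose in differentiating NSPCs from 1.27, 1.58, 0.676 and 1.38 CPM to 5.504, 8.81, 2.53 and 4.33 CPM (1.51, FDR 0.0149). Every *Kat6a*–/– library was above the *Kat6a*+/+ range. *Cntfr*, the CNTF receptor gene, rose by 0.35 (FDR 0.0335) and was not called without quality weights.

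*Stat3* (chromosome 11, 100775924 to 100830450, minus strand) was lower in proliferating *Kat6a*–/– NSPCs. Its level was 539, 534, 437 and 505 CPM in *Kat6a*+/+ libraries, 541, 491, 488 and 328 CPM in *Kat6a*+/– libraries and 371, 378, 319.8 and 329 CPM in *Kat6a*–/– libraries. No *Kat6a*–/– library reached the *Kat6a*+/+ range, and the log2 fold-change was −0.44 (SE 0.12, FDR 0.0144). The call did not hold when litter was a fixed term (−0.32, FDR 0.0659) or when either *Kat6a*+/+ replicate 4 (FDR 0.0553) or replicate 3 of *Kat6a*–/– (FDR 0.0555) was left out. In differentiating NSPCs *Stat3* was at 275, 343, 258 and 327 CPM in *Kat6a*+/+, at 328, 294, 325 and 329 CPM in *Kat6a*+/– and at 344, 393, 310.0 and 363 CPM in *Kat6a*–/– libraries. The groups overlapped, and the log2 fold-change of 0.21 (SE 0.09) had an FDR of 0.0621, which fell under 0.05 when *Kat6a*+/+ replicate 2 or 4 was left out.

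Among 12 genes of JAK-STAT transduction, 1 was higher and 3 were lower in proliferating *Kat6a*–/– NSPCs, the latter being *Stat5b* (−0.94), *Jak2* (−0.48) and *Stat3*. This share was near the 30.0% of all genes. When litter was a fixed term 2 were called, beside 15.8% of all genes. Differentiating NSPCs had 4 genes higher, led by *Stat6* (1.75) and *Stat5a* (0.89), and 1 lower, *Jak2* (−0.64, FDR 4.39e-06), beside 54.4% of all genes called. Without *Kat6a*–/– replicate 1 or 3, 1 of the 12 was called, beside 9.01% and 6.99% of all genes. *Jak2*, the gene of a kinase bound to cytokine receptors, was the transducer that fell in both conditions. Without quality weights, *Jak2* (−0.58) stayed called in differentiating NSPCs and *Stat6* and *Stat5a* did not.

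*Socs3* (chromosome 11, 117856905 to 117860898, minus strand) is the gene with the STAT motif shown above. In proliferating NSPCs it was at 12.1, 7.82, 3.42 and 8.88 CPM in *Kat6a*+/+, at 13.6, 5.31, 13.1 and 9.37 CPM in *Kat6a*+/– and at 3.85, 8.63, 3.50 and 5.58 CPM in *Kat6a*–/– libraries. The ranges overlapped and the log2 fold-change of −0.53 (SE 0.45, FDR 0.383) did not pass the test. Differentiating NSPCs had 23.4, 41.6, 21.0 and 30.7 CPM in *Kat6a*+/+ libraries, 32.4, 47.1, 37.5 and 24.1 CPM in *Kat6a*+/– libraries and 54.2, 30.9, 51.6 and 50.4 CPM in *Kat6a*–/– libraries. *Kat6a*–/– replicates 1, 3 and 4 exceeded all other libraries and replicate 2 lay inside the *Kat6a*+/+ range. The log2 fold-change was 1.04 (SE 0.18, FDR 0.000462), but the call depended on the weighting of the libraries: it was 0.70 (FDR 0.0736) without quality weights, and 0.68 (FDR 0.290) and 0.65 (FDR 0.373) without *Kat6a*–/– replicate 1 or 3.

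Of 14 tested JAK-STAT inhibitors, 5 were higher and 5 lower in differentiating *Kat6a*–/– NSPCs, beside 26.7% and 27.7% of all genes. None was called without *Kat6a*–/– replicate 1 or 3, beside 9.01% and 6.99% of all genes. The count was 11 without replicate 2 or 4, beside 70.6% and 61.8%. Besides *Socs3*, *Socs1* (1.01) and the related *Cish* (0.56) rose, while *Socs2* (−0.67), *Socs4* (−0.36) and *Socs7* (−0.29) fell. Without quality weights none was higher and 2, *Socs4* (−0.31) and *Pias2* (−0.28), were lower, beside 23.2% of all genes called. In proliferating NSPCs *Socs5* (0.32) and *Ptpn2* (0.26) were higher and *Socs7* (−0.30) and *Ptpn1* (−0.21) lower. With litter as a fixed term no inhibitor was called, beside 15.8% of all genes.

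*Cd44* (chromosome 2, 102641486 to 102732010, minus strand), the hyaluronan receptor gene, was changed in differentiating NSPCs. Proliferating libraries held 55.8, 52.8, 66.6 and 64.6 CPM in *Kat6a*+/+ libraries, 71.2, 58.6, 68.0 and 65.0 CPM in *Kat6a*+/– libraries and 68.6, 64.0, 72.8 and 59.5 CPM in *Kat6a*–/– NSPCs. These ranges overlapped (log2 fold-change 0.19, SE 0.09, FDR 0.133 in *Kat6a*–/–), although the change was called with library quality weights (0.26, FDR 0.0270). Differentiating libraries held 34.9, 31.5, 35.1 and 28.8 CPM in *Kat6a*+/+ libraries, 37.3, 55.0, 26.2 and 39.6 CPM in *Kat6a*+/– libraries and 136, 65.5, 133 and 57.7 CPM in *Kat6a*–/– NSPCs. All *Kat6a*–/– libraries exceeded all others, and replicates 1 and 3 had about the same level and stood well above replicates 2 and 4. The fitted log2 fold-change was 1.82 (SE 0.19, FDR 1.52e-05). It was 1.48 (FDR 0.00442) without quality weights and 1.27 to 1.96 when any library was left out, with an FDR of at most 0.0318.

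The CD44 list held hyaluronan synthases, matrix ligands and membrane linkers. In differentiating *Kat6a*–/– NSPCs, 6 of 14 tested genes were higher, led by *Spp1* (5.53), the osteopontin gene, *Msn* (2.05), the gene of the membrane linker moesin, and *Tnc* (1.96), the tenascin C gene. The proteoglycan gene *Vcan* (−0.60) and the linker gene *Rdx* (−0.24) were lower. The 8 calls stood beside 54.4% of all genes. They went to 1 without *Kat6a*–/– replicate 1 or 3, beside 9.01% and 6.99% of all genes. Without replicate 2, 12 of 15 tested genes were called, beside 70.6%. *Spp1* was at 0.716, 3.82, 0.676 and 0.671 CPM in *Kat6a*+/+ and at 68.9, 1.75, 58.7 and 8.65 CPM in *Kat6a*–/– libraries. Replicates 1 and 3 were high again, and replicate 2 lay inside the *Kat6a*+/+ range. Without quality weights, *Spp1* (3.75) and *Msn* (1.63) were called and *Tnc*, *Vcan* and *Rdx* were not. In proliferating NSPCs *Ezr* (0.98), *Mmp14* (0.84) and *Bcan* (0.80) were higher and the hyaluronan synthase gene *Has2* (−1.96) and *Msn* (−0.43) were lower. Of 13 tested genes of this list 6 were called, beside 30.0% of all genes. The number fell to 3 with a fixed litter term, beside 15.8%.

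*Serpina3n* (chromosome 12, 104372810 to 104380597, plus strand) was lower in proliferating *Kat6a*–/– NSPCs. It was at 4.88, 3.07, 4.93 and 8.50 CPM in *Kat6a*+/+, at 3.54, 1.80, 2.77 and 1.07 CPM in *Kat6a*+/– and at 0.453, 0.515, 0.876 and 0.399 CPM in *Kat6a*–/– libraries. The *Kat6a*–/– libraries were the 4 lowest of the condition, and 3 of 4 *Kat6a*+/– libraries lay below the *Kat6a*+/+ range. The log2 fold-change was −2.97 (SE 0.51, FDR 0.00109) in *Kat6a*–/– NSPCs and was called under every alternative. In *Kat6a*+/– NSPCs it was −1.03 (unadjusted p = 0.00538, FDR 0.462). Differentiating NSPCs held 12.6, 17.2, 7.34 and 16.1 CPM in *Kat6a*+/+ libraries, 10.6, 5.82, 5.12 and 3.03 CPM in *Kat6a*+/– libraries and 9.22, 12.6, 17.6 and 15.4 CPM in *Kat6a*–/– libraries. The *Kat6a*–/– and *Kat6a*+/+ ranges overlapped (0.47, SE 0.34, FDR 0.269). *Serpina3n* belongs to a family of closely related genes, and reads shared with its relatives make its counts uncertain.

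*Lcn2* (chromosome 2, 32274645 to 32278264, minus strand) was close to unread. Proliferating NSPCs had 1 read in all, in a *Kat6a*+/+ library. Differentiating NSPCs had 0, 2, 0 and 1 reads in *Kat6a*+/+, 1, 4, 0 and 0 reads in *Kat6a*+/– and 6, 4, 19 and 4 reads in *Kat6a*–/– libraries. Every *Kat6a*–/– library had a higher CPM than every *Kat6a*+/+ library, but with 3 reads in the *Kat6a*+/+ group no test or fold-change is given.

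*C3* (chromosome 17, 57510964 to 57535155, minus strand), the central complement component, did not exceed 0.721 CPM in any proliferating library. In differentiating NSPCs it was at 0.771, 1.91, 0.627 and 2.77 CPM in *Kat6a*+/+, at 3.32, 0.535, 0.445 and 0.269 CPM in *Kat6a*+/– and at 2.27, 53.0, 6.69 and 8.27 CPM in *Kat6a*–/– libraries. *Kat6a*–/– replicate 2 was far above all others, replicates 3 and 4 were above the *Kat6a*+/+ range and replicate 1 was inside it. *C3* had a log2 fold-change of 2.59 (SE 0.66, FDR 0.00561). Although its size stayed between 2.07 and 4.15 in all alternatives, the call was lost without quality weights (2.72, FDR 0.0503), with a fixed litter term (2.15, FDR 0.304), with voom and a litter block (2.93, FDR 0.0926), with Y-linked reads as a term (2.39, FDR 0.0783), and without *Kat6a*–/– replicate 1 (FDR 0.0680) or 3 (FDR 0.126).

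*C4b* (chromosome 17, 34947354 to 34962912, minus strand), a component of the classical complement pathway, was higher in proliferating *Kat6a*–/– NSPCs. It was at 0.531, 0.782, 0.704 and 0.507 CPM in *Kat6a*+/+, at 1.45, 0.902, 0.816 and 0.976 CPM in *Kat6a*+/– and at 7.81, 2.32, 0.986 and 2.29 CPM in *Kat6a*–/– libraries. Neither mutant group overlapped the *Kat6a*+/+ range. The log2 fold-change was 2.07 (SE 0.52, FDR 0.00944) in *Kat6a*–/– NSPCs, with the call lost without *Kat6a*+/+ replicate 1 (FDR 0.0618), and 0.64 (SE 0.57, FDR 0.853) in *Kat6a*+/– NSPCs. Its near-identical neighbour *C4a* was at 1.41 to 2.03 CPM in *Kat6a*+/+ and 0.598 to 1.59 CPM in *Kat6a*–/– libraries, and shared reads make the split between the copies uncertain. In differentiating NSPCs *C4b* was at 24.7, 22.2, 7.82 and 28.3 CPM in *Kat6a*+/+, at 22.8, 7.82, 19.8 and 7.39 CPM in *Kat6a*+/– and at 12.6, 54.7, 22.96 and 37.4 CPM in *Kat6a*–/– libraries. These overlapped, and the log2 fold-change was 0.44 (SE 0.48, FDR 0.459).

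Other genes of the complement list, which includes *C3* and *C4b*, were called beside them. Of 7 listed genes tested in proliferating NSPCs, 5 were higher in *Kat6a*–/–, *C4b* among them, and none was lower. These counts stood beside 16.2% and 13.8% of all genes. The 5 also included *C2* (2.14, FDR 0.000538) and *Clu* (1.71, FDR 0.0127), the clusterin gene. *C2* was at 1.21, 1.32, 0.905 and 1.14 CPM in *Kat6a*+/+ and at 5.77, 3.61, 4.82 and 6.88 CPM in *Kat6a*–/– libraries, without overlap. With litter as a fixed term 3 of the 7 were called, beside 15.8% of all genes. In the same libraries *P2ry12* was at 1.21 to 1.41 CPM in *Kat6a*+/+ and 6.13 to 8.25 CPM in *Kat6a*–/– NSPCs, while the microglial complement genes *C1qa*, *C1qb* and *C1qc* had no read. Of 11 tested in differentiating NSPCs, 6 were higher, led by *C3*, the C1 inhibitor gene *Serping1* (1.80) and *Masp1* (1.39), and *Cfb* (−0.65) was lower, beside 26.7% and 27.7% of all genes. No complement gene was called without *Kat6a*–/– replicate 1 or 3, beside 9.01% and 6.99% of all genes. Without quality weights *Serping1* (1.54) was the complement gene still called.

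**Figure D3:**
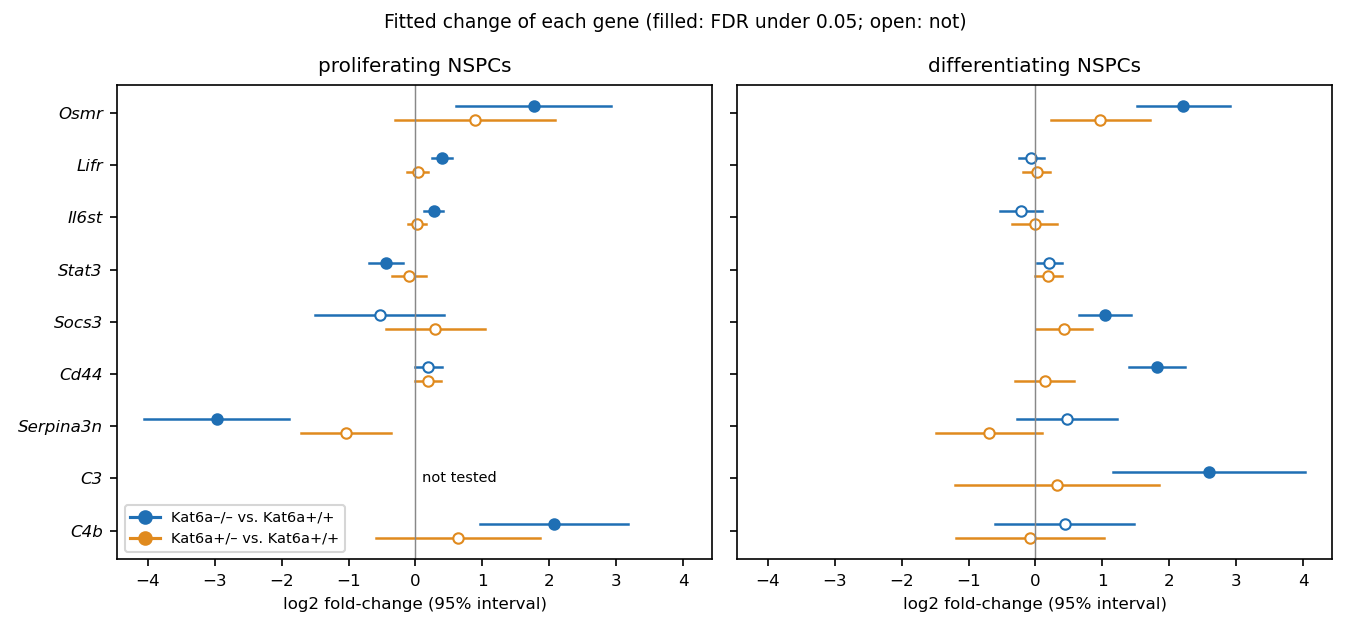
Fitted log2 fold-change with its 95% interval for each tested gene in *Kat6a*–/– (blue) and *Kat6a*+/– (orange) vs. *Kat6a*+/+ NSPCs, proliferating on the left and differentiating on the right. Filled points have FDR < 0.05: *Osmr* is filled in both conditions for *Kat6a*–/–, and no *Kat6a*+/– point is filled.

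The differentiating *Kat6a*–/– libraries did not form an even group, and the genes divided by which libraries carried them. Replicates 1 and 3 were the highest for *Cd44*, *Lif* and *Spp1*. Replicate 2 was the highest for *Osmr*, *C3*, *C4b* and *Il6st* and the lowest for *Socs3*. Markers of mesenchymal cells and astrocytes also parted replicates 1 and 3 from replicate 2, with replicate 4 between them. *Cd44*, in contrast, was lowest in replicate 4 (57.7 CPM). The summed level of 10 mesenchymal and meningeal markers was 573, 164, 537 and 388 CPM in replicates 1 to 4, against 124 to 170 CPM in *Kat6a*+/+ libraries, and the collagen gene *Col1a1* was at 176, 9.24, 142 and 101 CPM against 2.10 to 16.3 CPM. The sum of 11 astrocyte markers was 2043, 7506, 2355 and 3884 CPM, against 2602 to 3655 CPM, and the astrocyte filament gene *Gfap* was at 148, 1905, 256 and 992 CPM against 339 to 703 CPM. In *Kat6a*+/– NSPCs, replicate 2 had the highest *Cd44* and *Lif*, the highest mesenchymal sum (283 CPM) and the lowest *Gfap* (239 CPM). The sum of 8 neuron markers was 472, 785, 556 and 623 CPM in *Kat6a*–/– replicates 1 to 4, against 553 to 744 CPM in *Kat6a*+/+ libraries. Summed oligodendrocyte markers did not follow this division and were highest in replicate 4, at 795, 698, 1098 and 1231 CPM in *Kat6a*–/– replicates 1 to 4. The *Kat6a*+/+ libraries held 1201 to 1421 CPM, so that replicates 1, 2 and 3 lay below this range and replicate 4 inside it. The sum of 9 stem and progenitor markers was higher in all *Kat6a*–/– libraries (8241 to 11845 CPM against 6003 to 7633 CPM) and that of 8 endothelial markers lower (10.9 to 36.9 CPM against 46.8 to 73.1 CPM). In each differentiating group, 1 of the 8 endothelial and 4 of the 10 mesenchymal markers exceeded 1 CPM in every library. The endothelial marker *Cldn5* had no read in these groups. Whether the sums stand for cells of these types, and their part in the results, was not tested.

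Library quality weights, which the study's model uses for differentiating NSPCs, gave replicate 3 of *Kat6a*–/– 69.0%, replicate 1 16.8%, replicate 4 10.0% and replicate 2 4.22% of the weight of their group. Replicates 1 and 2 came from the same litter and stood at opposite ends of the group for *C3*, *Gfap* and *Il6st*. *Osmr* and *Cd44* were above the *Kat6a*+/+ range in all 4 libraries. The mesenchymal sum was inside its *Kat6a*+/+ range in replicate 2 and above it in replicates 1, 3 and 4. *Gfap* was below its *Kat6a*+/+ range in replicates 1 and 3 and above it in replicates 2 and 4. The part of these marker levels in the change of *Osmr* and *Cd44* was not tested.

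**Figure D4:**
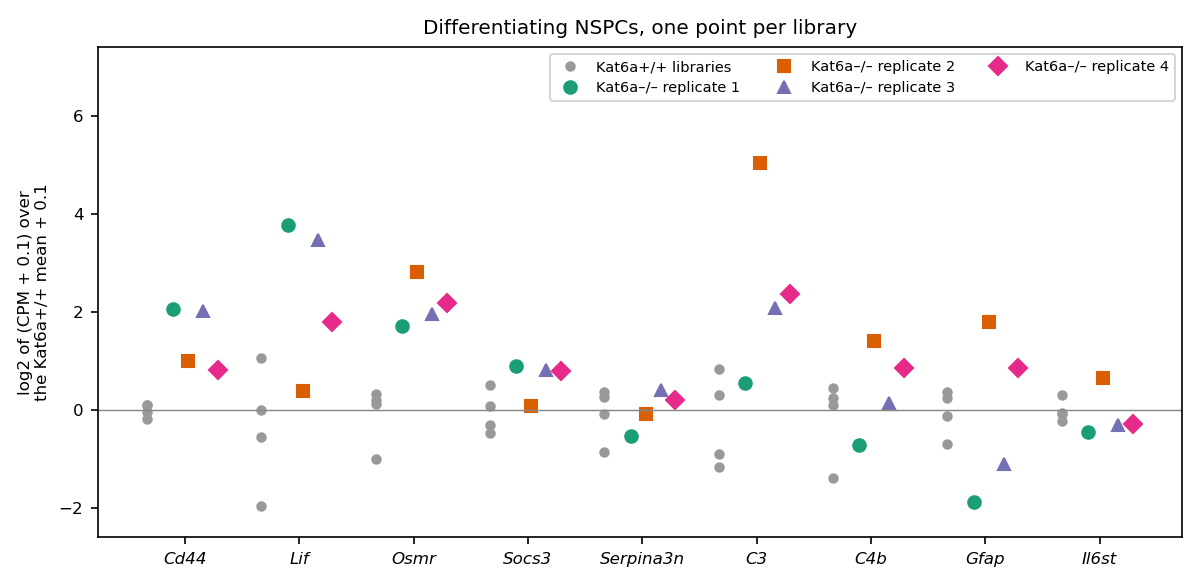
Level of 9 genes in differentiating *Kat6a*+/+ (grey) and *Kat6a*–/– (coloured by replicate) libraries, as log2 of CPM plus 0.1 over the *Kat6a*+/+ mean plus 0.1. *Kat6a*–/– replicates 1 and 3 are highest for *Cd44* and *Lif* and lowest for *Gfap*, and replicate 2 is highest for *Osmr*, *C3*, *C4b*, *Gfap* and *Il6st*.

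One copy of *Kat6a* gave no call. In *Kat6a*+/– vs. *Kat6a*+/+ NSPCs, 0 of 8 genes in proliferating and 0 of 9 in differentiating NSPCs passed the limma test, against 0% of all genes in either condition. At an unadjusted p under 0.05, *Serpina3n* was the 1 gene in proliferating NSPCs, and *Osmr* (0.97, SE 0.34, unadjusted p = 0.0148, FDR 0.262) and *Socs3* (0.42, unadjusted p = 0.0479, FDR 0.345) were the 2 in differentiating NSPCs. Over all genes, 912 and 1926 had an unadjusted p under 0.05, edgeR called 0 in both conditions, and DESeq2 called 28 and 8. The *Kat6a*+/– and *Kat6a*–/– comparisons use the same *Kat6a*+/+ libraries. Set against *Kat6a*+/– directly, proliferating *Kat6a*–/– NSPCs had 3 of 8 genes called, against 14.8% of all genes (8.47% higher, 6.30% lower): *Lifr* (0.36, FDR 0.00498) and *Il6st* (0.25, FDR 0.0220) higher and *Serpina3n* (−1.93, FDR 0.0245) lower. Differentiating *Kat6a*–/– NSPCs had 5 of 9 called, all higher, against 37.5% of all genes (19.1% higher). These were *Cd44* (1.68, FDR 0.000310), *C3* (2.27, FDR 0.0375), *Osmr* (1.24, FDR 0.0224), *Serpina3n* (1.16, FDR 0.0403) and *Socs3* (0.62, FDR 0.0382), and the count fell to 0 with litter as a fixed term.

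The change from proliferation to differentiation was itself large for these genes. In *Kat6a*+/+ NSPCs 8 of 9 tested genes were called, against 72.9% of 13590 genes, with 5 higher and 3 lower in differentiating cells (36.7% and 36.2% of all genes). *C4b* (log2 fold-change 4.87), *Osmr* (4.32), *Il6st* (2.56), *Socs3* (1.68) and *Serpina3n* (1.42) rose, and *Cd44* (−0.86), *Lifr* (−0.76) and *Stat3* (−0.74) fell. *C3* did not pass the test (2.22, FDR 0.206). In *Kat6a*–/– NSPCs 7 of 9 were called, 6 higher and 1 lower, against 69.2% of all genes (35.8% higher, 33.5% lower). There, *Cd44* (0.46, FDR 0.0847) and *Stat3* (0.01, FDR 0.954) did not pass the test and *C3* did (6.69, FDR 0.00465). In *Kat6a*+/– NSPCs 8 of 9 were called, against 69.7% of all genes (35.4% higher, 34.2% lower).

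Whether the *Kat6a*–/– effect differed between conditions was tested as an interaction, for which 13.9% of all genes were called (6.36% with a positive and 7.58% with a negative estimate). The effect was more positive in differentiating NSPCs for 3 of 9 genes: *Serpina3n* (3.09, SE 0.84, FDR 0.0181), *Cd44* (1.32, SE 0.33, FDR 0.0112) and *Stat3* (0.75, SE 0.18, FDR 0.00734). The *Serpina3n* call was lost without proliferating *Kat6a*–/– replicate 1 (FDR 0.0542) or 4 (FDR 0.0563). For *Osmr* the interaction was 0.49 (SE 1.07, FDR 0.797) and for *Lifr* −0.44 (SE 0.16, FDR 0.0739). *Lif*, from the ligand list, was called (3.87, FDR 0.0164).

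Most called genes of the wider reactive and inflammatory lists were higher in differentiating *Kat6a*–/– NSPCs. As these lists were chosen with earlier results of these data known, their counts beside the all-gene shares are not a test. Of 12 tested pan-reactive astrocyte genes, 3 of them among the 10 genes above, 8 were higher and none lower, with a median log2 fold-change of 1.53 against −0.02 for all genes, of which 26.7% were called higher and 27.7% lower. They were led by the chemokine gene *Cxcl10* (3.82), the heat shock gene *Hspb1* (3.77) and the ceruloplasmin gene *Cp* (3.74). Of 11 genes known from ischemia, 8 were higher (median 1.46), with *Ptgs2* (3.26), the cyclooxygenase gene, *Emp1* (3.20) and *Clcf1* in front. Of 10 genes known from inflammation, 6 were higher, among them *Fbln5* (2.06), *Serping1* and *Gbp2* (1.25), and *Fkbp5* (−1.22) was lower. All 11 tested genes of NF-kappaB and interleukin 1 signalling were higher (median 1.17), with *Ccl2* (3.61), *Relb* (1.92) and the receptor gene *Il1r1* (1.61) at the top. Of 20 STAT3 targets, which include *Socs3* and *Stat3*, 13 were higher (median 0.79), led by *Icam1* (3.42), the cyclin gene *Ccnd1* (3.34) and *Timp1* (2.55), and *Birc5* (−2.95), the gene of the mitotic protein survivin, was lower.

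Without quality weights, 23.2% of all genes were called, and the counts of higher genes fell to 7 of 12 pan-reactive, 7 of 11 ischemia, 2 of 10 inflammation, 7 of 11 NF-kappaB and 7 of 20 STAT3 target genes. Without *Kat6a*–/– replicate 3, which left 6.99% of all genes called, the counts of higher genes were 3, 1, 0, 4 and 2. Without replicate 1, which left 9.01%, they were 2, 3, 0, 5 and 3. In each of these fits 1 inflammation gene and 1 STAT3 target were lower. Without replicate 2, which gave 70.6%, the counts of higher genes were 9 of 12, 10 of 11, 7 of 10, 12 of 12 and 16 of 21 tested. Without replicate 4, which gave 61.8%, they were 8 of 12, 8 of 11, 7 of 10, 12 of 12 and 15 of 20 tested. Lower genes were 2 pan-reactive, 1 inflammation and 2 STAT3 target genes without replicate 2, and 1, 1 and 2 without replicate 4. *Ccnd1* was at 17.8 to 51.4 CPM in *Kat6a*+/+ and at 499, 20.5, 262 and 77.7 CPM in *Kat6a*–/– libraries, and it was not called without quality weights.

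In proliferating NSPCs the same lists were called in both directions, beside 16.2% of all genes higher and 13.8% lower. Pan-reactive genes had 3 of 8 higher, *Gfap* (3.51), *Cp* (1.98) and *Osmr*, and 2 lower, *Serpina3n* and the filament gene *Vim* (−0.47). *Gfap* was at 0.556, 0.240, 0.201 and 0 CPM in *Kat6a*+/+ and at 6.57, 1.93, 1.86 and 2.49 CPM in *Kat6a*–/– libraries, all far below its level in differentiating cells. Ischemia genes had 3 of 6 lower, *S100a10* (−1.43), *Cd109* (−0.98) and *Cd14* (−0.79), and inflammation genes 1 of 7 lower, *H2-D1* (−1.60), whose reads can be shared with its relatives. Of 20 STAT3 targets *Gfap* was higher and *Il4ra* (−1.12), *Pim1* (−0.58) and *Stat3* were lower. NF-kappaB genes had 1 of 11 higher, *Tnfrsf1a* (0.44), and 1 lower, *Nfkb1* (−0.35). In *Kat6a*+/– NSPCs no listed gene was called by limma in either condition.

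**Figure D5:**
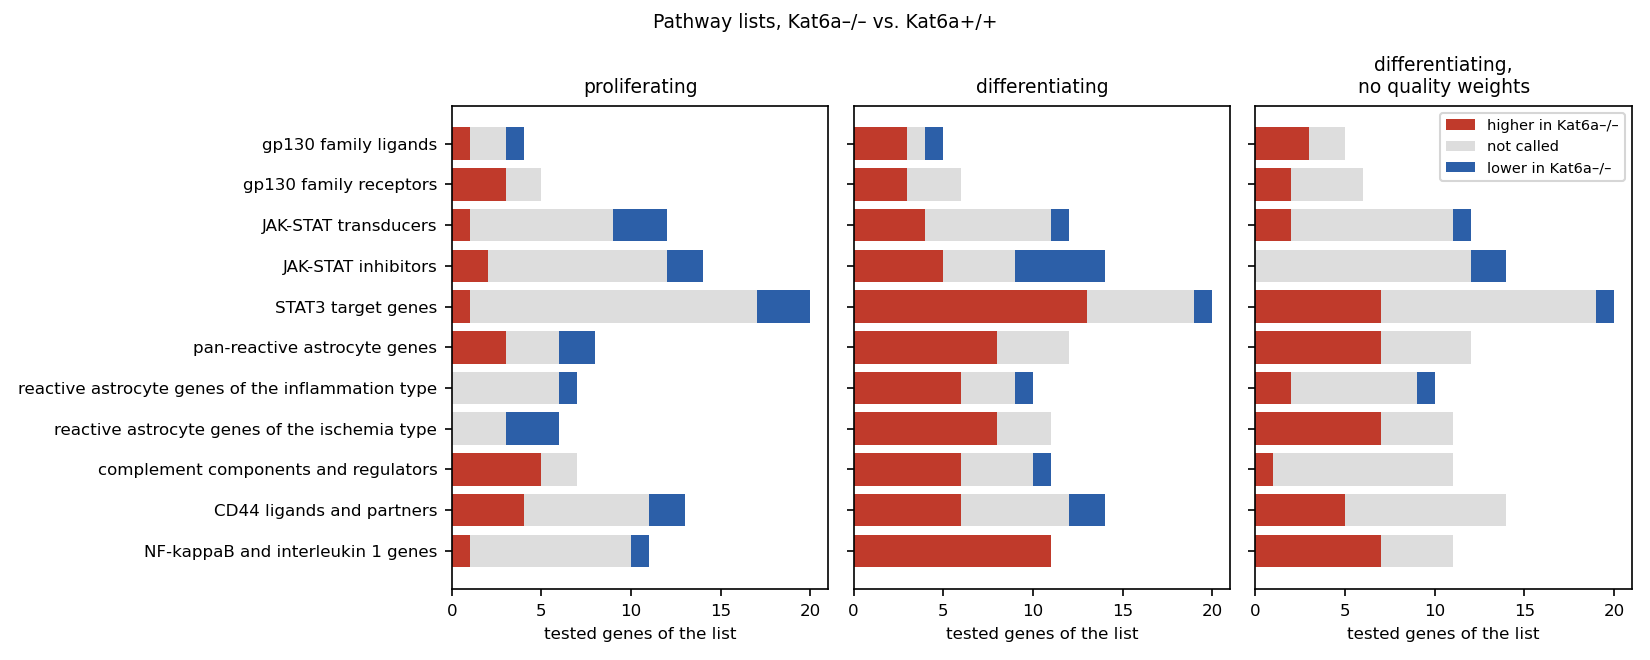
Number of tested genes of each pathway list that were higher (red), lower (blue) or not called (grey) at FDR < 0.05 in *Kat6a*–/– vs. *Kat6a*+/+ NSPCs, in proliferating cells, in differentiating cells and in differentiating cells fitted without library quality weights. Called STAT3 targets in differentiating cells go from 13 higher and 1 lower to 7 higher and 1 lower when the weights are left out.

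The genes whose log2 CPM followed each gene most closely over the 24 libraries, among 13590 genes, were *Abcb1b* for *Cd44* (Pearson's r 0.928), *Lmo4* for *Serpina3n* (0.925), *Kcns1* for *C3* (0.912), *Itm2c* for *C4b* (0.974), *Hacd2* for *Osmr* (0.973), *Gm32856* for *Lifr* (0.957), *Add1* for *Il6st* (0.994), *Ppard* for *Stat3* (0.899) and *Pxdc1* for *Socs3* (0.951). The points share 2 conditions that differ for most genes, and these values are a description.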

How the data were processed

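The authors aligned stranded, polyadenylated RNA reads to the mouse genome mm39 with Rsubread and deposited raw counts per gene and library from featureCounts, with RefSeq's strict annotation. Software versions and the strand setting of the counting are not given in the sources used here. The members and the pathway and marker lists were chosen with earlier results of these data known.

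Groups, replicates and litters follow the labels. Protein-coding genes (21030 of 26411) that passed filterByExpr were kept, without *Xist* and Y-linked genes, and scaled by TMM factors. Genes without a biotype (52) or symbol (2) were left out. As in the study's methods, limma-voom was used for the 12 proliferating libraries, in which litter was a random block (correlation within litters 0.287), and for the 12 differentiating libraries limma-trend was run on log2 CPM (prior count 2) with arrayWeights quality weights, both with robust moderation. All 24 libraries together were fitted by limma-voom with the litter block (correlation 0.00365), which tested 13590 genes and gave the contrasts between conditions and the interaction. A gene was called at a Benjamini-Hochberg FDR under 0.05 over all genes tested, which an FDR printed without a tool's name refers to. CPM and RPKM printed for libraries use TMM factors of all 24 libraries and no weights, so a fitted fold-change can differ from a ratio of means.

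All 10 genes are named in every comparison. From each pathway list and condition, up to 3 called genes with the largest change on each side and an average log2 CPM above 0 are named, and from the 24-library fit the gene most like each by Pearson's r. Some listed genes are not reported here. *P2ry12* and genes named under a setting other than the one stated here, as well as *Col1a1* and *Gfap*, were singled out after their values were seen. Positions are from GENCODE vM39 (mm39). A replicate number was to count as pairing libraries where every pair's deviations from the group means correlated above 0.1. That held for 5 of 24 pairs between genotypes and for 2 of 12 between conditions, so the numbers were not used as pairs. By the labels, *Kat6a*+/+ replicates 1 and 3 and *Kat6a*–/– replicates 2, 3 and 4 came from the same embryo in both conditions. The 6 embryo labels found in both conditions entered an alternative fit. No 2 replicates were alike within sampling noise (lowest chi-square per degree of freedom 5.55). Scripts were tested on simulated counts. Versions were R 4.3.3, limma 3.58.1, edgeR 4.0.16, DESeq2 1.42.0, Python 3.11.15, pandas 2.3.3, scipy 1.17.1 and matplotlib 3.10.9.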

Additional observations from a re-analysis of the deposited data

Results flagged for a closer look

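In 53 sets of 4 libraries, each a gene in a group, 5 held a library whose distance from the nearest other exceeded Dixon's 95% limit as a share of the group's range, where chance gives about 1 in 20. *Kat6a*–/– differentiating replicate 2 was this library for *C3* (53.0 CPM), *Il6st* (806 CPM) and, on the low side, *Socs3* (30.9 CPM). *Kat6a*+/– differentiating replicate 1 was high for *C3* (3.32 CPM), and *Kat6a*+/– differentiating replicate 2 was low for *Stat3* (294 CPM).

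The *Kat6a*–/– effect differed between conditions for *Cd44* (log2 difference 1.32), *Serpina3n* (3.09) and *Stat3* (0.75) by the interaction test of limma. Condition and extraction kit cannot be told apart in these differences.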

How the results depend on the processing

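Of 1743 values of single genes under other settings, 1575 kept direction and side of the threshold, 75 lost the call, 42 gained it and 51 changed sign, none of the last called in the report; the cause of these changes was not tested.

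For *Kat6a*–/– vs. *Kat6a*+/+ differentiating NSPCs (4 called), 2 were called without quality weights or with voom and a litter block, and 2 to 6 with one library left out (2 without *Kat6a*–/– replicate 1 or 3, 6 without replicate 2). Over all genes, calls there went from 7258 to 3097 without weights, 3244 by edgeR, 4076 by DESeq2, 1785 with litter fixed and 939 to 9505 with one library left out. In proliferating cells, 3686 went to 1936 with litter fixed and 2317 without *Kat6a*+/+ replicate 1. The 6 calls among these genes there were 4 to 7 under other settings and 4 to 6 with one library left out. Against *Kat6a*+/–, the 3 proliferating calls were 5 by DESeq2, 1 without a litter term and 1 to 4 with one library left out. The 5 differentiating calls were 3 without a filter or by edgeR, 2 with voom, 0 with litter fixed, 1 with Y-linked reads as a term (chosen after seeing the data) and 0 to 5 with one library left out. The 3 interaction calls were 5 by DESeq2, 7 with quality weights and 2 to 6 with one library left out. The replicate number was not used to pair libraries in the main fits. As a block (replicate block) it gave 1 of 3 proliferating calls against *Kat6a*+/– and moved the other counts of these genes by less than 1.5 times.

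Values of changed sign (log2) were as follows. *Kat6a*–/– vs. *Kat6a*+/+ differentiating gave *Lifr* 0.037 with litter fixed, and *C4b* −0.16 to 1.12 and *Il6st* −0.34 to 0.28 with one library left out. *Kat6a*+/– vs. *Kat6a*+/+ proliferating gave *Il6st* −0.0099 with litter fixed, and with one library left out *Il6st* −0.023 to 0.064, *Socs3* −0.019 to 0.68 and *Stat3* −0.21 to 0.025. *Kat6a*+/– vs. *Kat6a*+/+ differentiating gave *Lifr* −0.011 without TMM, −0.036 by edgeR, −0.030 by DESeq2, −0.12 with litter fixed, −0.055 without weights, −0.049 with voom and −0.32 with the Y-linked term, and *C3* −0.42 by edgeR, −0.41 by DESeq2, −0.76 without weights, −0.89 with voom and −0.40 with the Y-linked term. With one library left out, these had *C3* −0.96 to 1.04, *C4b* −0.69 to 0.28, *Il6st* −0.22 to 0.11 and *Lifr* −0.083 to 0.10. *Kat6a*–/– vs. *Kat6a*+/– proliferating gave *Cd44* −0.017 with litter fixed and −0.057 to 0.068 with one library left out. The same contrast in differentiating cells gave *Stat3* −0.12 without TMM, *Il6st* 0.17 by edgeR, 0.18 by DESeq2, 0.13 without weights and 0.14 with voom, and *Lifr* 0.16 with litter fixed and 0.022 with the Y-linked term. One library left out gave *Lifr* −0.16 to 0.016, *Stat3* −0.070 to 0.21 and *Il6st* −0.33 to 0.29 there, and −0.079 to 0.81 for the *Osmr* interaction.

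Genes of few reads (*Lcn2*, and *C3* in proliferating cells) could not be tested at this depth. P-values rest on 4 libraries a group, which did not count equally in differentiating NSPCs. There, quality weights gave *Kat6a*–/– replicate 3 69.0% of its group's weight and *Kat6a*+/+ replicates 1 and 3 42.0% and 34.9% of theirs. *Kat6a*–/– replicates 1 and 2 shared a litter, and that fit held no litter term.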
